A study of Homo sapiens with 6 samples.

Results

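The comparison described here set HMC-1.2 cells treated with SPHK2-I, the sphingosine kinase 2 inhibitor ABC294640, against the same cells given vehicle. Its members are all of the 84 cell cycle genes on the qPCR array, so 84 of 84 measured genes were taken, and none was chosen by its values. The 5 housekeeping genes and the 7 control wells were left out. HMC-1.2 is a human neoplastic mast cell line that carries the D816V and V560G mutations of KIT, and every group shares both. Cells were kept in full medium for 24 h with 0.1% DMSO (Vehicle 1 and Vehicle 2) or with SPHK2-I at 50 µM (SPHK2-I 1 and SPHK2-I 2). The other 2 of the 6 samples received the sphingosine kinase 1 inhibitor SKI-178 (SPHK1-I) at 5 µM, and they enter below only as a contrast and in the estimate of the spread. All results come from this 1 cell line. Neither the labels nor the methods say if duplicates came from separate cultures, and the p-values therefore measure only the spread between these samples, which may be technical. Of 6 defining mast cell genes looked for (KIT, TPSAB1, CPA3, FCER1A, MS4A2 and HDC) the array holds 0, so the cell type could not be checked in these data.

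Sphingosine kinase 2 phosphorylates sphingosine to the signalling lipid sphingosine-1-phosphate, and part of the enzyme lies in the nucleus. Progress through the cell cycle is driven by cyclin-dependent kinases, whose cyclin subunits are made and destroyed in turn: D and E cyclins in G1, cyclin A in S phase, and cyclins A and B before mitosis. Genes for mitosis are transcribed late, in G2 and M, from promoters bound by the CCAAT-binding factor NF-Y and by DREAM or MYB-MuvB complexes at the cell cycle homology region (CHR). Genes for DNA replication are transcribed earlier, at the G1/S border, largely by E2F factors.

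The threshold cycle (Ct) of a gene falls by 1 for each doubling of its cDNA. The ΔCt is that Ct minus the mean over 4 reference genes (RPLP0, HPRT1, GAPDH and B2M). The quantities given are the relative level, which is 2 to the power of −ΔCt and is therefore 1 for a gene at the reference mean, and the change, which is the difference in mean −ΔCt, a log2 value. Levels of different genes come from different assays and were not compared. A gene is said to have risen or fallen where limma's p-value, adjusted over the 84 genes by the Benjamini-Hochberg method, was below 0.05. For a single gene the smallest p an exact permutation test of this design allows is 0.333, and limma's test draws part of its spread from the other genes. In these bulk samples, fewer cells in the phase that expresses a gene and less mRNA per cell cannot be told apart.

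SPHK2-I lowered 20 genes and raised 4. The fallen genes were led by the mitotic cyclin CCNB1, the mitotic kinase AURKA, the CDK-activating phosphatase CDC25A, survivin (BIRC5) and the anaphase activator CDC20. The risen genes included CCNG2, CDK6 and CDKN2B. The fallen genes are 23.8% and the risen genes 4.76% of the genes tested, and these shares are the background for the lists below. The median change of the 84 genes was −0.25, with 58 changes below 0 and 26 above. Both SPHK2-I samples lay below both vehicle samples for 51 genes (60.7%) and above both for 21 (25%), and the groups overlapped for 12. All 24 called genes were among the 72 (85.7%) whose groups did not overlap. Their gaps were wider than the distance between the duplicates of either group, as were those of some uncalled genes such as CHEK1 and NBN. The calls rest on the same values, so this is no separate support for them. The duplicates lay close together, at a median distance of 0.10 between the vehicle samples and 0.11 between the SPHK2-I samples on the log2 scale. A further 3 genes, CHEK1, CCNG1 and GADD45A, changed by more than 1.5-fold and did not pass the test.

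**Figure D1:**
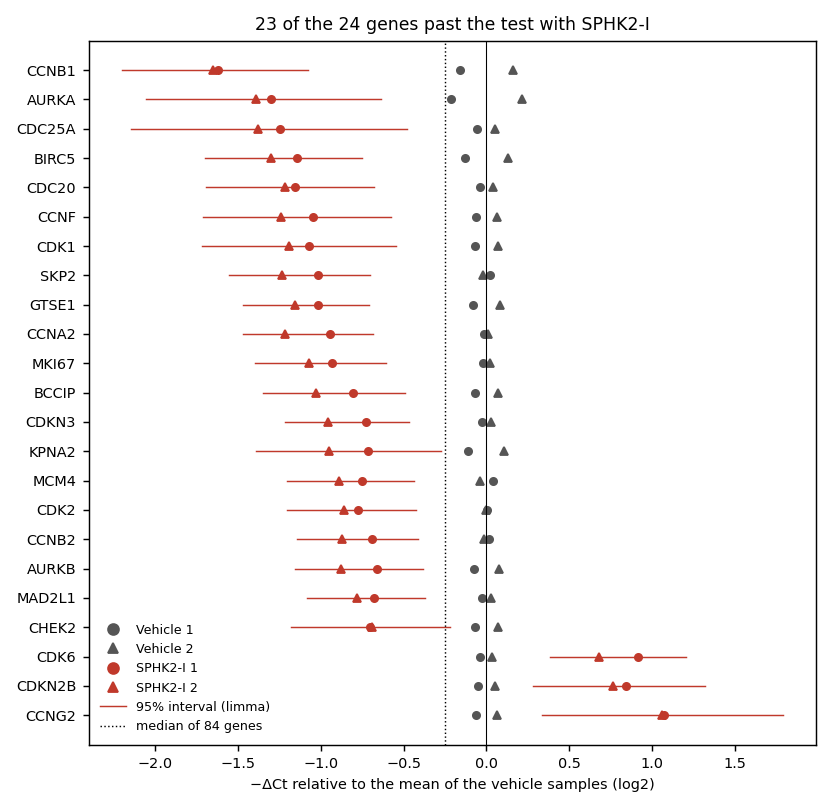
Each point is 1 sample's −ΔCt minus the mean of the vehicle samples (log2) for 23 of the 24 genes that passed the test, in grey for vehicle and red for SPHK2-I, with limma's 95% interval of the change as a line. The red points of 20 genes lie left of both grey points and those of 3 genes right of both, and the dotted line marks the median change of the 84 genes, −0.25.

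The control wells read alike across the 4 samples, but the median Ct and the reference Ct were higher in both SPHK2-I samples than in both vehicle samples. Median Ct was 27.2 and 27.0 with vehicle and 27.9 and 28.0 with SPHK2-I, and 9 to 13 genes per sample had a Ct above 30. The mean Ct of the reference genes was 22.3 and 22.1 with vehicle and 22.7 in both SPHK2-I samples. The reverse transcription control wells read 24.1 to 24.3 and the positive control wells 21.4 to 21.7. CDK5R1 was at the Ct limit of 35 in SPHK2-I 2, so its level there is an upper bound. The housekeeping genes did not move together: with SPHK2-I the −ΔCt changed by 0.42 for B2M, 0.25 for RPLP0, −0.15 for GAPDH and −0.52 for HPRT1, and by −0.55 for ACTB, which is not in the reference. Another reference moves all 84 changes by the same amount, so their order is fixed, but their position against 0 is not. The median change ran from −0.67 with B2M alone to 0.30 with ACTB alone. SPHK1-I 2 stood apart from the other samples, with a median Ct of 29.5 and 37 genes above 30.

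All 4 of the S and G2/M cyclins fell, with a median change of −1.11. CCNB1, cyclin B1, which activates CDK1 for entry into mitosis, had relative levels of 0.0734 and 0.0917 with vehicle and 0.0267 and 0.0261 with SPHK2-I. The vehicle samples were both well above the SPHK2-I samples, which were almost equal. This was the largest change on the array, a fall of 3.11-fold (change −1.64, 95% interval −2.20 to −1.07, adjusted p = 0.00687). CCNA2, cyclin A2, which serves both S phase and early mitosis, stood at 0.129 and 0.131 with vehicle and at 0.0675 and 0.0559 with SPHK2-I. Again no SPHK2-I sample reached the vehicle level, and the fall was 2.11-fold (change −1.08 ± 0.17 SE, adjusted p = 0.00687). CCNB2, a second B-type cyclin, gave 0.0843 and 0.0823 against 0.0516 and 0.0456, a fall of 1.72-fold (adjusted p = 0.0106). CCNF, an F-box cyclin that works in a ubiquitin ligase rather than with a CDK, gave 0.0217 and 0.0237 against 0.0110 and 0.00962, a fall of 2.21-fold (adjusted p = 0.0113).

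None of the 4 G1 cyclins passed the test, and their median change was 0.00, with 2 members above 0 and 2 below. With only the vehicle and SPHK2-I samples in the fit, CCNE1 was lower and CCND1 higher. CCND1, which opens the G1 programme by activating CDK4 and CDK6, was at 0.0146 and 0.0172 with vehicle and at 0.0217 and 0.0207 with SPHK2-I. Its samples were apart and upward, but the change of 0.42 had an interval of −0.00 to 0.85 (adjusted p = 0.119). CCNE1, the partner of CDK2 at the G1/S border, went the other way, from 0.0215 and 0.0209 to 0.0165 and 0.0148 (change −0.44, adjusted p = 0.0662). CCND2 and CCND3, the other D cyclins, overlapped between the groups, with changes of 0.09 (interval −0.35 to 0.52) and −0.08 (interval −0.43 to 0.28). For both, a fall of the size seen in CCNB1 lies outside the interval.

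Among the mitotic kinases and spindle proteins 6 of 7 fell and none rose, with a median change of −1.0. AURKA, the kinase that matures centrosomes, was at 0.0681 and 0.0918 with vehicle and at 0.0321 and 0.0301 with SPHK2-I. The vehicle duplicates were 0.43 apart on the log2 scale, more than for most genes, and the gap to the nearer SPHK2-I sample was still 1.08 (change −1.35 ± 0.30 SE, adjusted p = 0.0125). BIRC5, survivin, a subunit of the chromosomal passenger complex and an inhibitor of apoptosis, gave 0.00401 and 0.00480 against 0.00198 and 0.00178. That is a fall of 2.33-fold (change −1.22 ± 0.20 SE, adjusted p = 0.00687). AURKB, the kinase of the same complex, fell by 0.77 on the log2 scale (adjusted p = 0.0115). GTSE1, a microtubule protein of G2 and M, fell 2.13-fold (0.0392 and 0.0438 against 0.0205 and 0.0186, adjusted p = 0.00687). MKI67, the proliferation antigen Ki-67 that coats mitotic chromosomes, was at 0.170 and 0.176 with vehicle and at 0.0907 and 0.0825 with SPHK2-I (change −1.0, adjusted p = 0.00687). KPNA2, an importin that carries cargo to the nucleus, fell by 0.83 (adjusted p = 0.0354), a call held under 2 of 8 other references. STMN1, stathmin, which destabilises microtubules, was lower in both samples without passing the test (change −0.43, adjusted p = 0.0749).

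The anaphase-promoting complex and spindle checkpoint list was divided, with 2 of 6 members lower and a median of −0.23. CDC20, which activates the complex at anaphase and is itself made in G2, was at 0.107 and 0.112 with vehicle and at 0.0491 and 0.0470 with SPHK2-I (change −1.19 ± 0.22 SE, adjusted p = 0.00956). MAD2L1, the checkpoint protein that holds CDC20 inactive, fell by 0.73 (0.179 and 0.187 against 0.115 and 0.107, adjusted p = 0.0113). The subunits of the complex on the array, CDC16 and ANAPC2, changed by 0.32 and −0.01 and did not pass. KNTC1, a kinetochore protein, and MAD2L2, which has roles in DNA repair, also did not pass (changes −0.45 and 0.24).

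The lists above share many genes whose mRNA is known to peak in G2 and M. A second grouping put 16 such genes in 1 list, and 14 of the 16 fell, against 23.8% of the array, a share that includes these 14. The members were chosen with earlier results of these data known, so the count is a description and not a test. The median change was −1.04 and all 16 lay below the median of the array. The 2 that did not pass were CDC25C, the phosphatase that activates CDK1 (change −0.51, adjusted p = 0.0557), and CKS2, a CDK-binding subunit (change −0.49, adjusted p = 0.0721). A list of 13 genes that peak at the G1/S border had 3 that fell, SKP2, CDC25A and MCM4, and a median of −0.41. The 55 genes in neither list had 3 that fell, 4 that rose and a median of −0.04. The distance between the phase lists within a sample is free of the reference genes. The mean −ΔCt of the G2/M list exceeded that of the G1/S list by 1.05 and 1.14 with vehicle, by 0.60 and 0.63 with SPHK2-I and by 1.51 and 1.74 with SPHK1-I, so the SPHK2-I samples were the lowest and did not overlap with either of the other groups.

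**Figure D2:**
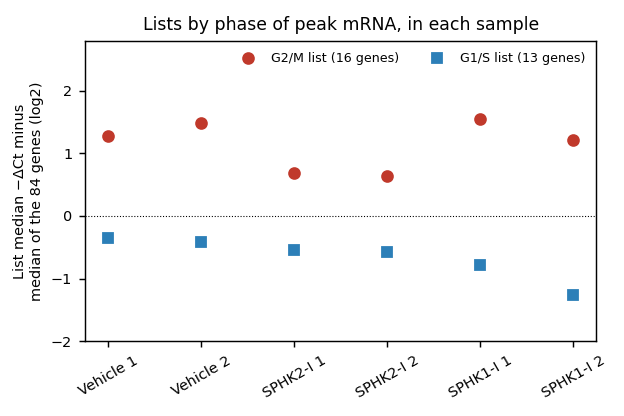
Each point is the median −ΔCt of the genes of a list in 1 sample, minus the median of all 84 genes in that sample (log2), for the 16 genes that peak in G2/M (circles) and the 13 that peak at G1/S (squares). The circles stand at 1.29 and 1.48 with vehicle and at 0.69 and 0.64 with SPHK2-I, while the squares move from −0.35 and −0.41 to −0.55 and −0.57.

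Of the 20 fallen genes 14 are in the G2/M list, 3 in the G1/S list and 3 in neither. The sequence before the start sites of the array genes was read from a RefSeq table of promoter windows (GRCh38.p14, 250 bases before to 50 bases after each start, first listed window per gene). A window was there for 68 of the 84 genes. Among those missing were AURKA, BCCIP, BIRC5, CCND1, CCND2, CDK2, GADD45A, HUS1, KNTC1, MCM4, MCM5, NBN and WEE1. The motifs searched on both strands were the NF-Y box, CCAAT, the CHR, TTTGAA or TTCGAA, and an E2F site, GCGGGAA or GCGCCAA, and letters of different motifs overlapped at 1 place. The stretches below are the 120 bases before the start, 5′ to 3′ on the gene's strand, with matches in capitals. They show 4 fallen genes and, as the contrast, the risen gene with the largest change. All 5 genes are on the plus strand, CCNB1 at chr5:69167030-69167149, CCNB2 at chr15:59105026-59105145, CDC20 at chr1:43358861-43358980, GTSE1 at chr22:46296750-46296869 and CCNG2 at chr4:77157087-77157206. CCAAT and its reverse complement ATTGG are the NF-Y box, and TTTGAA or TTCAAA the CHR.
CCNB1: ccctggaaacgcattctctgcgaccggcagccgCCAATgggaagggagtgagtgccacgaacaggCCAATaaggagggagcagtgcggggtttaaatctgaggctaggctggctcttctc
CCNB2: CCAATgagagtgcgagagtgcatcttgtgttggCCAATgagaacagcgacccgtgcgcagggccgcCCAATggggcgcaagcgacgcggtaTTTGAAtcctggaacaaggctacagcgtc
CDC20: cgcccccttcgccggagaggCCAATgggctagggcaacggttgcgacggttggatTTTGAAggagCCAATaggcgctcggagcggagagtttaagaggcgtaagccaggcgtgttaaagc
GTSE1: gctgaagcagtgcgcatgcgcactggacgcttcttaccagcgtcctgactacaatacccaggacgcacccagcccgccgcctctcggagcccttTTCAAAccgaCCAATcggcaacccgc
CCNG2: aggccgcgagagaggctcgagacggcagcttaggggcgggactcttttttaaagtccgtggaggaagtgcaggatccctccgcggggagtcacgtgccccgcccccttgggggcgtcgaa
CCNB2 carries 3 NF-Y boxes and 1 CHR in this stretch, CDC20 2 and 1, GTSE1 1 and 1, and CCNB1 2 NF-Y boxes without CHR letters, while CCNG2 has neither.

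Of the 20 fallen genes 15 had a window, and 14 of these (93.3%) held an NF-Y box and 9 (60%) a CHR, all of the latter together with an NF-Y box. SKP2 was the fallen gene without an NF-Y box. None of the 3 risen genes with a window, CCNG2, CDK6 and CDKN2B, held any of the motifs, but 3 genes are too few to set against the shares below. CCNG1, which moved up by 0.70 without passing, held 4 NF-Y boxes. In the list of growth arrest and survival genes, described below, 4 of the 6 with a window held at least 1. Among the 50 genes that did not pass, 20 (40%) held an NF-Y box and 6 (12%) a CHR. Over all 27305 genes of the table the shares were 35.7% for the NF-Y box, 16.6% for the CHR and 6.58% for both, and over the 15843 protein-coding genes 36.4%, 13.5% and 5.57%. The E2F site was in 13.3% of the fallen genes, 18% of those that did not pass and 9.33% of the table. The 13 array genes with both an NF-Y box and a CHR had a median change of −0.83, and the other genes with a window −0.13. This difference was not seen within the G2/M list. There 10 of the 14 genes with a window held both, with a median of −0.92, and the others also had −0.92. Among the 15 fallen genes the median was −1.0 with both and −1.10 without. These are counts of letters with no test, and no factor was measured.

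Of the cell cycle kinases 2 fell and 1 rose. CDK1, the kinase of mitosis, was at 0.176 and 0.194 with vehicle and at 0.0880 and 0.0809 with SPHK2-I, a fall of 2.19-fold with the groups far apart (adjusted p = 0.0116). CDK2, the kinase of G1/S and S phase, fell 1.76-fold from 0.0343 and 0.0341 to 0.0200 and 0.0189 (adjusted p = 0.0106). CDK6, a partner of D cyclins, rose 1.74-fold, from 0.000884 and 0.000929 to 0.00170 and 0.00145 (change 0.80, SE 0.17, adjusted p = 0.0116). CDK4, its close relative, did not pass (change −0.21, interval −0.57 to 0.14). The list's median was −0.51.

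Of the CDK inhibitors 1 of 4 rose and none fell, with a median of 0.15. CDKN2B, the p15 inhibitor of CDK4 and CDK6, was at 0.00497 and 0.00532 with vehicle and at 0.00919 and 0.00871 with SPHK2-I, both samples above both controls (1.74-fold, adjusted p = 0.0337). CDKN1A, the p21 inhibitor, changed by 0.08 (interval −0.42 to 0.59). CDKN1B, the p27 inhibitor that holds quiescent cells, overlapped between groups at 0.04 (interval −0.36 to 0.44). CDKN2A, which encodes p16 and ARF, changed by 0.22 with a wide interval of −0.63 to 1.06.

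The enzymes that switch CDKs on and off gave 2 falls among 6 genes and a median of −0.50. CDC25A, the phosphatase that activates CDK2 and CDK1, was at 0.0141 and 0.0152 with vehicle and at 0.00619 and 0.00565 with SPHK2-I. The duplicates were close and the groups far apart, but the interval of this 2.48-fold fall was wide, −2.15 to −0.48 (adjusted p = 0.0317). CDKN3, a phosphatase that removes the activating phosphate from CDKs, fell by 0.84 (0.0659 and 0.0686 against 0.0405 and 0.0346, adjusted p = 0.0103). CKS1B, a CDK subunit that also helps SKP2, changed by −0.45 (adjusted p = 0.0845), and the inhibitory kinase WEE1 by −0.06 with overlapping groups. Among the ubiquitin ligases of the SCF and cullin families SKP2 alone of 5 fell. SKP2, the F-box protein that marks p27 for destruction, gave 0.0253 and 0.0247 against 0.0123 and 0.0106, with vehicle duplicates 0.04 apart on the log2 scale (2.18-fold, adjusted p = 0.00687). The cullins CUL1, CUL2 and CUL3 lay between −0.24 and −0.05, and the ubiquitin-conjugating enzyme CDC34 at 0.39 (adjusted p = 0.135). The list's median was −0.11.

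Replication licensing genes were lower in both samples for all 5 members, against 60.7% of the array, but 1 of 5 passed. Below the array's median change lay 3 of the 5, and with ACTB alone as reference 1 of 5 changes was below 0. MCM4, a subunit of the MCM helicase, fell 1.77-fold (0.0326 and 0.0310 against 0.0189 and 0.0172, adjusted p = 0.0106). The other helicase subunits MCM3, MCM2 and MCM5 changed by −0.52, −0.41 and −0.20, and the loading factor CDC6 by −0.19 (interval −0.63 to 0.25). The list's median was −0.41. None of 7 genes of the RB, E2F and DP list passed, with a median of −0.29 and a range of −0.48 for RB1 to 0.35 for TFDP2. Of these, TFDP2 and TFDP1, the partners of E2F factors, moved in opposite directions (0.35, adjusted p = 0.119, and −0.42, adjusted p = 0.209). E2F1 overlapped between groups at −0.13. The list of the CDK-activating kinase, transcriptional cyclins and CDK5 partners gave none of 8, with a median of −0.25, equal to that of the array. Its smallest p belonged to CCNH, the cyclin of the CDK-activating kinase (change −0.38, adjusted p = 0.157), with CCNC of the Mediator at −0.25 and CCNT1 of the elongation kinase at −0.29. With only the vehicle and SPHK2-I samples in the fit, 5 of the 7 RB, E2F and DP genes and 4 of these 8 passed. On the array 55 of 84 did.

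In the DNA damage lists most genes did not pass. Of the 8 checkpoint and clamp genes CHEK2 fell, from 0.0130 and 0.0144 to 0.00843 and 0.00848 (1.62-fold, adjusted p = 0.0369), a call held under 2 of 8 other references. CHEK2 is the checkpoint kinase activated after double-strand breaks. CHEK1, the kinase activated by stalled replication, moved by a similar amount without passing, from 0.0218 and 0.0231 to 0.0151 and 0.0137 (change −0.64, adjusted p = 0.0917). The upstream kinases ATM and ATR were at −0.22 and −0.08 and the clamp genes RAD9A, RAD1 and HUS1 at 0.20, 0.08 and −0.04, while the clamp loader RAD17 was at 0.25. The list's median was −0.06. Of the 7 break repair genes BCCIP fell, from 0.0974 and 0.107 to 0.0584 and 0.050 (1.89-fold, adjusted p = 0.0106). BCCIP encodes a protein that binds both BRCA2 and p21. NBN, part of the complex that senses breaks, followed at −0.52 (adjusted p = 0.0662). The 5 others ran from −0.31 to 0.24, and the list's median was −0.27.

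The list of growth arrest and survival genes had the highest median, 0.38, with 2 of 9 higher and none lower. In 7 of 9 both SPHK2-I samples lay above both vehicle samples, against 25% of the array. CCNG2, a cyclin associated with arrest that is known as a target of FOXO factors, was at 0.0105 and 0.0115 with vehicle and at 0.0230 and 0.0228 with SPHK2-I. It rose 2.09-fold, the largest rise on the array (change 1.06 ± 0.31 SE, interval 0.34 to 1.79, adjusted p = 0.0369). Both SPHK2-I samples were far above both vehicle samples and nearly equal. CCNG1, its close relative, was at 0.0610 and 0.0526 against 0.0943 and 0.0897 (change 0.70, adjusted p = 0.0604). GADD45A, a growth arrest gene induced by damage, was at 0.000867 and 0.000681 against 0.00122 and 0.00142 (change 0.78, adjusted p = 0.0783). BCL2, which blocks apoptosis, changed by 0.38, the kinase ABL1 by 0.34 and SERTAD1, a regulator of CDK4 and E2F, by 0.23. MDM2, a ubiquitin ligase, lay lower without passing (−0.27, interval −0.83 to 0.30).

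**Figure D3:**
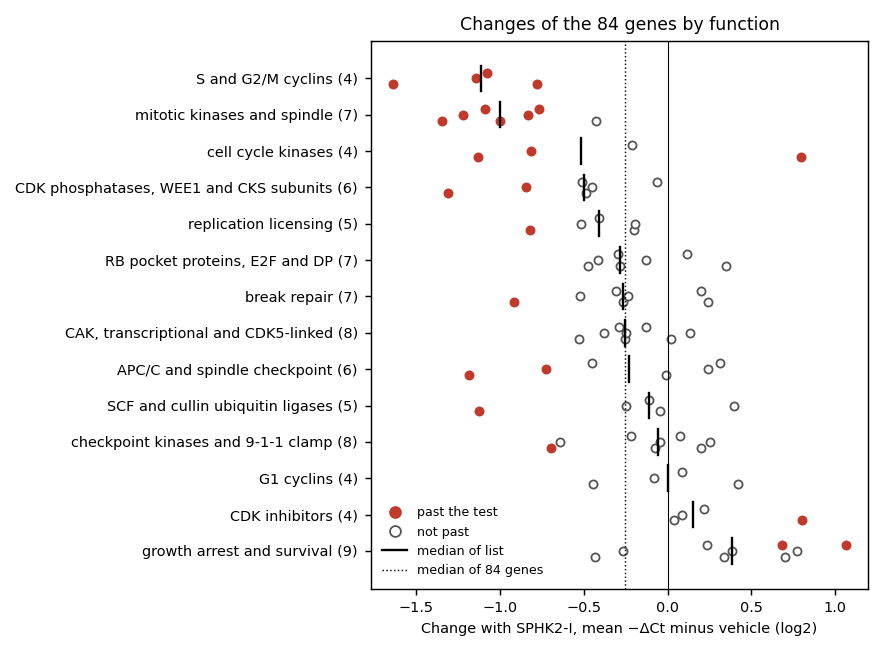
Each point is the change of 1 gene with SPHK2-I (difference in mean −ΔCt, log2), by list, with the number of genes in brackets. Filled points passed the test, short bars are list medians, and the dotted line is the median of the 84 genes, −0.25. The S and G2/M cyclins (median −1.11) and the mitotic kinases and spindle proteins (−1.0) lie furthest to the left, and the growth arrest and survival genes (0.38) furthest to the right.

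The calls depend on the reference genes, whose own values parted as given above. With 8 other references (all 5 housekeeping genes, the authors' 4 without B2M, each of the 5 alone, or the median of the 84 genes) the genes that fell under every one were AURKA, CCNB1, CCNF, CDK1, GTSE1 and SKP2, 6 of 20. The falls of KPNA2 and CHEK2 were held under 2 of the 8, that of CDC25A under 4, and those of the other 11 under 6 or 7. No gene that rose did so under every one. CCNG2 was lost with RPLP0 alone, and CDK6 and CDKN2B with RPLP0 alone and with B2M alone. The changes of all 24 kept their sign. Each was larger in size than the largest shift by a reference, 0.55 with ACTB alone, so none could have turned. Of the G2/M list, 5 fell with ACTB alone and 8 with HPRT1 alone, against 13 to 16 of 16 with the others. Of all 84 genes 7 fell with ACTB alone, 9 with HPRT1 alone and 17 to 56 with the others. The 16 of 16 came with B2M alone, where 56 of 84 fell. CDC25C and CKS2 turned slightly positive with ACTB alone and with HPRT1 alone. The median of the growth arrest and survival list ran from −0.04 with B2M alone to 0.93 with ACTB alone.

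**Figure D4:**
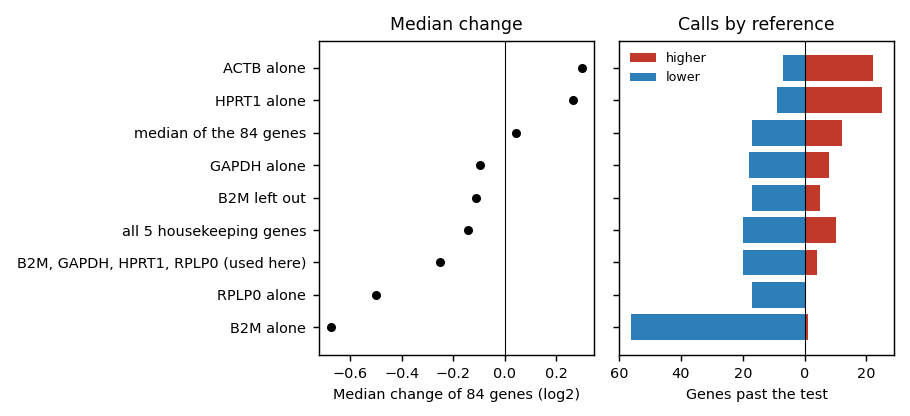
The left panel gives the median change of the 84 genes (log2) and the right panel the number of genes past the test (bars to the right higher, to the left lower) for each choice of reference. The median runs from −0.67 with B2M alone, where 56 genes are lower and 1 is higher, to 0.30 with ACTB alone, where 7 are lower and 22 higher.

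The calls also depend on the samples that set the spread. Vehicle and SPHK2-I duplicates differed with an SD of 0.166 and 0.129 across genes, and SPHK1-I duplicates with 0.484. With only the vehicle and SPHK2-I samples in the fit, 42 genes were lower and 13 higher, and these held all of the 24. With all groups in the fit and any 1 of Vehicle 1, Vehicle 2, SPHK2-I 1 or SPHK2-I 2 left out, no gene passed limma's test, while 19 to 20 had an unadjusted p under 0.05. In the 4-sample fit with any of these left out, 33 to 41 genes were lower and 10 to 11 higher. These fits have 1 sample in an arm, which is assumed to vary like the duplicates of the other group, so they do not check the spread of that arm. Leaving out either SPHK1-I sample gave 42 lower and 13 higher.

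The samples given SPHK1-I show how far the pattern goes with SPHK2-I. The doses differed (50 and 5 µM), so the direct difference, SPHK2-I minus SPHK1-I, is between these treatments and not at a matched dose. In it 13 genes were lower with SPHK2-I (15.5%) and 13 higher (15.5%). The fit gives all groups 1 spread per gene although the SPHK1-I duplicates lay further apart, so the intervals and p-values here may be too small. With a weight per sample 16 differences passed, and with the methods' t-test, after adjustment, 0. Of the 20 genes that SPHK2-I lowered, 10 were also lower than with SPHK1-I, and for the other 10 the difference did not pass. The latter were CDC25A, CCNF, CDK1, SKP2, MKI67, KPNA2, MCM4, CDK2, AURKB and CHEK2. Each of them was also lower with SPHK1-I than with vehicle, by −0.66 (AURKB) to −1.24 (CDC25A). Limma's adjusted p there was 0.00603 (MCM4) to 0.0311 (CDC25A). SPHK2-I against vehicle shares its SPHK2-I samples with the direct difference and its vehicle samples with SPHK1-I against vehicle. The genes furthest below their SPHK1-I level were BIRC5 (−1.59, interval −2.06 to −1.12, adjusted p = 0.00652), CDC20 (−1.41, adjusted p = 0.0093) and AURKA (−1.33, adjusted p = 0.0185). BIRC5 was at 0.00487 and 0.00658 with SPHK1-I, CDC20 at 0.103 and 0.157 and AURKA at 0.107 and 0.0569, all above the SPHK2-I samples. The AURKA duplicates lay far apart. For CDK1, CDC25A, SKP2 and CDK2 the difference was −0.03, −0.08, −0.15 and 0.09, with intervals no wider than −0.91 to 0.76. Of the G2/M list 10 of 16 were lower in the SPHK2-I samples and none higher, and of the G1/S list none was lower and 4 of 13 were higher, namely CDC6 (1.00), MCM2 (0.69), MCM3 (0.61) and MCM5 (0.55). The calls of the direct difference were not kept with limma when any 1 vehicle or SPHK2-I sample was left out. Leaving out SPHK1-I 1 or SPHK1-I 2 moved the median direct difference of the 84 genes from 0.13 to 0.31 or −0.05. With 1 SPHK1-I sample the spread comes only from the vehicle and SPHK2-I duplicates, which lay closer together, so such a fit cannot check these calls.

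The genes that SPHK2-I raised did not behave alike in that difference. CCNG2 was higher than with SPHK1-I, by 1.40 (adjusted p = 0.017), and so was CCNG1 (adjusted p = 0.0141). CDK6 was lower by 1.10 on the log2 scale (change −1.10, adjusted p = 0.0093), with 0.00370 and 0.00308 in the SPHK1-I samples. CDKN2B did not pass (0.56, interval 0.04 to 1.08, adjusted p = 0.103). CDKN1A, at 0.0968 and 0.0927 with SPHK2-I, was at 0.169 and 0.255 with SPHK1-I, and was lower with SPHK2-I in the direct difference (−1.13, adjusted p = 0.0113).

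**Figure D5:**
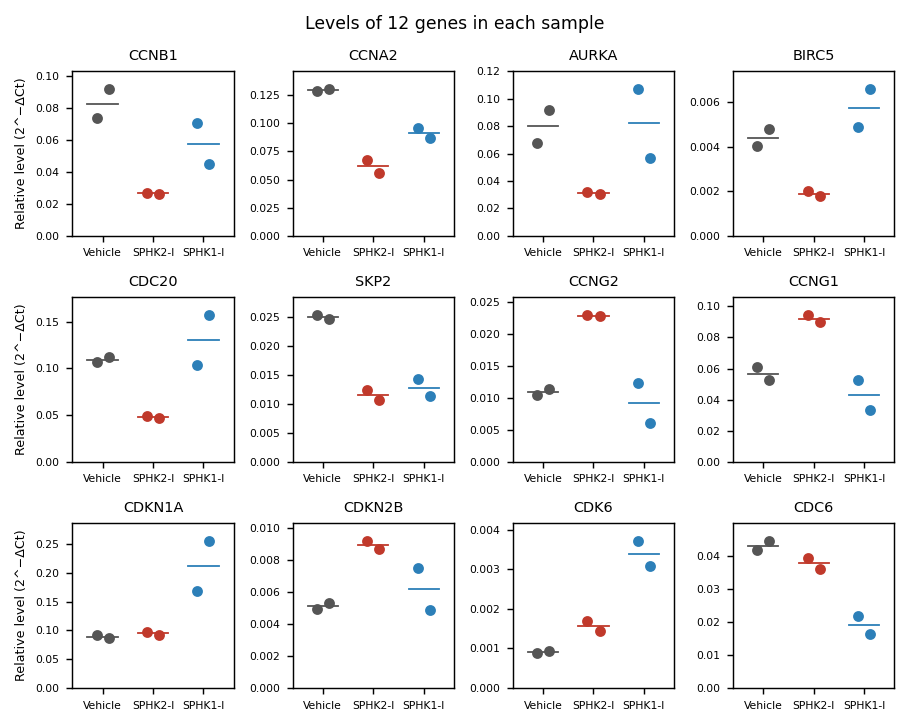
Relative levels (2 to the power of −ΔCt, linear axes from 0) of 12 genes in each sample, with vehicle in grey, SPHK2-I in red and SPHK1-I in blue, points for samples and bars for group means. The SPHK2-I points lie below both vehicle points for CCNB1, CCNA2, AURKA, BIRC5, CDC20, SKP2 and CDC6, above both for CCNG2, CCNG1, CDKN1A, CDKN2B and CDK6, and CDC6 (change −0.19), CCNG1 (0.70) and CDKN1A (0.08) did not pass the test.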

How the data were processed

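mRNA of 84 genes was measured by a SYBR qPCR array in 6 samples, 2 per group, grouped by their titles. The authors deposited Ct values (a log2 measure, limit 35) and, from the array maker's web tool (version not given in the sources used here), ΔCt values on the log2 scale. In each sample the deposited ΔCt of B2M, GAPDH, HPRT1 and RPLP0 sum to 0 within rounding, which identified the reference. The authors' fold tables hold ratios between groups and were not used.

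Changes in mean −ΔCt were tested in R 4.3.3 with limma 3.58.1. All 3 groups shared 1 model with empirical Bayes shrinkage (residual degrees of freedom 3, prior degrees 4.33 at an SD of 0.191). No replicate block was used, and p-values were adjusted over the 84 genes. SPHK2-I minus SPHK1-I and SPHK1-I minus vehicle were contrasts of the same fit. The 14 lists by function and 2 further groupings, and the members, were chosen with earlier results of these data known, and lists are described by counts and medians only. Named were every called gene, every gene past 1.5-fold, the cyclins of the study's text and up to 3 members per list with the smallest p, and others with their values. Those in the plot of levels were chosen after their values were seen. The array lists all genes with RefSeq accessions, all 84 of which matched the RefSeq table (1 renamed since, MRE11A, now MRE11). Some genes and 1 list are not reported here. The code was tested on simulated data. Alternatives were other references, Ct limits, samples, a block, weights and the methods' test. With arrays, the number of samples limits the precision.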

Additional observations from a re-analysis of the deposited data

How the results depend on the processing

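Against 4 genes higher, 20 lower, 26 called in the direct difference between the inhibitors, 27 past 1.5-fold and a median of −0.25, other references gave the following. All 5 housekeeping genes gave 10 higher and a median of −0.14, and leaving B2M out a median of −0.11. ACTB alone gave 22 higher, 7 lower, 40 in the direct difference and 0.30, and B2M alone 1, 56, 50 past 1.5-fold and −0.67. GAPDH alone gave 8 higher and −0.10, HPRT1 alone 25 higher, 9 lower and 0.26, RPLP0 alone 0 higher, 3 in the direct difference and −0.50, and the median gene 12 higher and 0.042. The reverse transcription wells, chosen after seeing the data, gave 0 higher, 0 lower, 0 in the direct difference, 51 past 1.5-fold and −0.71. Changes below 0 went from 58 of 84 to 21 with ACTB alone and 24 with HPRT1 alone. Among the turned signs, those of genes called before or after were ATR (0.48) and WEE1 (0.49) with ACTB alone, of CUL3 (0.47) and HUS1 (0.47) with HPRT1 alone, and of BIRC5 (0.41) with Ct limited to 30, where its Ct lay above that limit in Vehicle 1 and both SPHK2-I samples. That limit, and leaving out genes of mean Ct above 30, each gave 2 higher. Leaving out 1 sample gave 0 to 13 higher, 0 to 42 lower, 0 to 61 in the direct difference and medians of −0.31 to −0.20. With only the vehicle and SPHK2-I samples 13 were higher and 42 lower (10 to 11 and 33 to 41 leaving 1 of these out, chosen after seeing the data), and with a weight per sample 12 and 38, with 16 in the direct difference. The methods' t-test on −ΔCt, after Benjamini-Hochberg adjustment, gave 1 higher, 0 lower and 0 in the direct difference (8 and 33 unadjusted), and on relative levels 3, 14 and 0 (9 and 32 unadjusted). Same-numbered samples did not deviate together (correlation of deviations −0.105 between vehicle and SPHK2-I). With 1 difference per group this cannot show whether they were handled as pairs, and the sources state no pairing. A replicate block gave 6 higher, 20 lower and 14 in the direct difference. With the 4 samples alone and chosen after seeing the data, the block gave 12 and 37, the crossed pairing 12 and 42. The causes of these differences were not tested.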
